A study of Homo sapiens with 10 samples.

Results

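The BCL2 family is the set of proteins that decides at the outer membrane of the mitochondrion whether a cell lives or dies by apoptosis, and 10 of its genes were followed here in megakaryoblastic leukemia cells that had received the microRNA miR-1225-3p. The members were the guardians BCL2, BCL2L1 and MCL1, the pore-forming effectors BAX and BAK1, and the BH3-only proteins BID, BCL2L11, BBC3, PMAIP1 and BAD. Every probe of the array, apart from control spots, whose RefSeq accession belongs to one of these genes was taken, which gave 15 probes of 42405, for 10 genes of 19102 that had a matched symbol. BCL2L1, MCL1, BAK1, BBC3, PMAIP1 and BAD had a single probe each, and BCL2, BAX, BID and BCL2L11 had several. The paper that reported the arrays studied platelet microRNAs in sickle cell disease, and the arrays address which mRNAs change when miR-1225-3p, a microRNA raised in the platelets of those patients, is raised in a megakaryocytic line.

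MEG-01, a human cell line from a megakaryoblastic leukemia, stood in for megakaryocytes, the cells that shed platelets. The precursor of miR-1225-3p was nucleofected at 200 nM into 5 samples and a scrambled precursor at 200 nM into 5 others, and total RNA was taken after 24 h. Each sample was hybridized in the Cy3 channel to 1 Agilent 8x60K gene expression array, giving 10 arrays in 2 groups. For the scrambled samples a label on the source gives no treatment, while their titles and the study's methods name a control precursor. The precursor was given as a nucleofected dose to a cell line, and transfection reached only part of the cells per the study's results. The titles call the 5 samples of a group biological replicates without saying what set them apart, so p-values measure the spread between these samples.

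The guardians hold the effectors in check. When a BH3-only protein is made or activated it occupies the groove of the guardians or binds BAX and BAK1 directly, the effectors then assemble into pores, and the cytochrome c that leaks out starts the caspases. In megakaryocytes and platelets BCL-XL, the product of BCL2L1, is the main survival factor, MCL-1 shares that task in the megakaryocyte, and BAK with BAX sets the time at which a platelet dies.

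The microRNA that was introduced is given first, with its seed (bases 2 to 8, which pair with target mRNAs) in capitals, as RefSeq lists it on the minus strand of GRCh38.p14, chr16:2090195-2090216.
hsa-miR-1225-3p: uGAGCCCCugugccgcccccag
No transcript sequence was used here, so no site for this seed was looked for in the members.

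The promoters of some members, picked with their values known, are given next, from 250 bases before the start site to 50 after it, 5′ to 3′ (RefSeq, GRCh38.p14). They are BCL2L1, with both of its listed start sites at chr20:31723914-31724213 and chr20:31722819-31723118 (minus strand), BAK1 at chr6:33580227-33580526 (minus strand) and BAX at chr19:48954625-48954924 (plus strand). Capitals mark 5 motifs searched on both strands, which are CACGTG (E-box), GGGCGG (GC box), TATAAA (core promoter element), TTCNNNGAA (STAT site) and the pentamer CCAAT. In these 4 windows no match overlapped another.
BCL2L1, upstream start: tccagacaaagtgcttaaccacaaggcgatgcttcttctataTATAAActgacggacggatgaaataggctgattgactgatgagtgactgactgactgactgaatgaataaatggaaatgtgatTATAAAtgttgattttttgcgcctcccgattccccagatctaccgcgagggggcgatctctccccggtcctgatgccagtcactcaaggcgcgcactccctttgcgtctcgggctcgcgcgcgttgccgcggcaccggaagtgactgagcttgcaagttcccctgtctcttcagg
BCL2L1, downstream start: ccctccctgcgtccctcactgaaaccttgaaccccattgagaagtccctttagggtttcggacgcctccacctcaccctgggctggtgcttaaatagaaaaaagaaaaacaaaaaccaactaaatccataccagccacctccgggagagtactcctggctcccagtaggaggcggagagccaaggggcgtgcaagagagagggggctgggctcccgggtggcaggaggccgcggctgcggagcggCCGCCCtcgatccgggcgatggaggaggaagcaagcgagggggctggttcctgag
BAK1: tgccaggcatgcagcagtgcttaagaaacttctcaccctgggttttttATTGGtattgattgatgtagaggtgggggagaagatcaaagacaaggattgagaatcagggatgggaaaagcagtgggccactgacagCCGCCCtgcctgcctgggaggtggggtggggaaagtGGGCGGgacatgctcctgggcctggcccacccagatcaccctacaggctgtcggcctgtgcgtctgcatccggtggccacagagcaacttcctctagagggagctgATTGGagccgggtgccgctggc
BAX: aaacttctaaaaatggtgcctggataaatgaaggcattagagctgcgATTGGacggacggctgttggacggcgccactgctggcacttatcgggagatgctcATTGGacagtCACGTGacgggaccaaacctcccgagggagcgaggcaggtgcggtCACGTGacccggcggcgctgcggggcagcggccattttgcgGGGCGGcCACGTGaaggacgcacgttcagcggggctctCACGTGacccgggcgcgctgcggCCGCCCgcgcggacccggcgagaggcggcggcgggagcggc
The upstream window of BCL2L1 held TATAAA at positions -208 and -125 from the start and none of the other motifs, and was the only window of any member with TATAAA. The BAX window held CACGTG 4 times, at positions -138, -93, -45 and -14, with 2 GC boxes and 2 CCAAT boxes, and the BAK1 window held 2 GC boxes and 2 CCAAT boxes. Among the 15 windows of the 9 members that the table holds, CACGTG was present in 4 (BAX, BBC3 and 2 overlapping windows of BID), GGGCGG in 11, CCAAT in 6 and the STAT site in 0. Of all 35116 promoter windows in the table, 7.26% held CACGTG, 45% GGGCGG, 34.6% CCAAT, 11.5% TATAAA and 7.66% the STAT site. These are matches of letters only. MCL1 was not among the windows.

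On each array 58717 spots other than controls were read, none saturated. The share well above background was 41.95% to 53.85% in the miR-1225-3p group and 43.09% to 61.18% in the scrambled group. One array stood apart. On the first principal component, which held 69.8% of the variance, replicates 1 to 4 of miR-1225-3p reached from -146.88 to -57.15 and the scrambled arrays from 57.13 to 82.89. Replicate 5 of miR-1225-3p, at 63.83, fell among the scrambled arrays, so values without that array are given beside those of all 10. Of 14 megakaryocyte markers 13 had a probe and 8 were well above background on all 10 arrays (ITGA2B, ITGB3, GP6, PPBP, GATA1, NFE2, TAL1 and FLI1), whereas PF4 and VWF were well above background on at most 1 array. Markers that are not of this lineage were also well above background on all 10 arrays, namely CD79A, CD3D, CD14, EPCAM and KRT18. The mean log2 level of the 10 kept megakaryocyte probes was 7.86 to 8.51 in the miR-1225-3p group and 8.62 to 8.68 in the scrambled group, with 3 probes lower (ITGA2B, FLI1 and NFE2) and 0 higher by limma. That is 30% called, beside 35.0% of all kept probes. Without replicate 5, 7 of these 10 passed, beside 56.0% of all. Of the 7, GP6 was higher, at 0.59 (adjusted p = 0.00286 by limma), and the rest, now with GATA1, GP1BA and GP9, were lower. Of the other markers EPCAM rose by 0.90 (adjusted p = 0.0161 by limma), with groups that did not overlap, and the dim CD3E rose by 1.96 (adjusted p = 0.0328 by limma, well above background on 4 of the 10 arrays). Without replicate 5 EPCAM was at 1.07 and CD3E at 2.33, and CD79A (-1.85) and 1 KRT18 probe (-0.38) also passed (adjusted p = 0.0117 and 0.0175 by limma). The part of these markers in the results was not tested. In a bulk sample, fewer cells of a type and less RNA per cell cannot be told apart.

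All 15 member probes passed the filter for dim probes (3 or more arrays of one group had to be well above background), and 13 were well above background on all 10 arrays. The other 2, for BCL2L1 and one of the BAX probes, passed through the scrambled group, where they were brighter. By limma with Benjamini-Hochberg adjustment over all 20648 kept probes, 6 of the 15 probes changed at an adjusted p under 0.05, which is 40.0%, and over all kept probes the share was 35.0%. The share among the members was thus near that of the array as a whole. With only the 13834 probes well above background on all 10 arrays tested, 5 of the 13 members left passed (1 higher and 4 lower), beside 39.1% of all. BCL2L1, MCL1, BAK1, BAD and 1 of the 3 BCL2L11 probes fell, against 18.7% of all probes lower, and 1 of the 2 BAX probes rose, against 16.3% higher. Without miR-1225-3p replicate 5, 8 probes passed (6 lower and 2 higher), which is 53.3%, against 56.0% of all probes. The median log2 fold change of the member probes was -0.20 and that of all kept probes -0.09. Slide 1 held miR-1225-3p replicates 1 and 2 and scrambled replicates 1, 3 and 5. Slide 2 held miR-1225-3p replicates 3, 4 and 5 and scrambled replicates 2 and 4. The count was 4 on slide 1 alone, beside 25.9% of all probes, and 0 of 14 on slide 2 alone, beside 0 of all. Leaving out miR-1225-3p replicate 1 gave a count of 3 and leaving out scrambled replicate 5 gave 4, beside 24.4% and 29.7% of all probes. Any of the rest left out, apart from miR-1225-3p replicate 5, gave a count of 2, beside 11.1% to 22.5% of all probes. The direction split depended on the scaling, with 3 higher and 4 lower after scaling to the 75th percentile and 0 higher and 5 lower in the authors' normalized values.

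**Figure D1:**
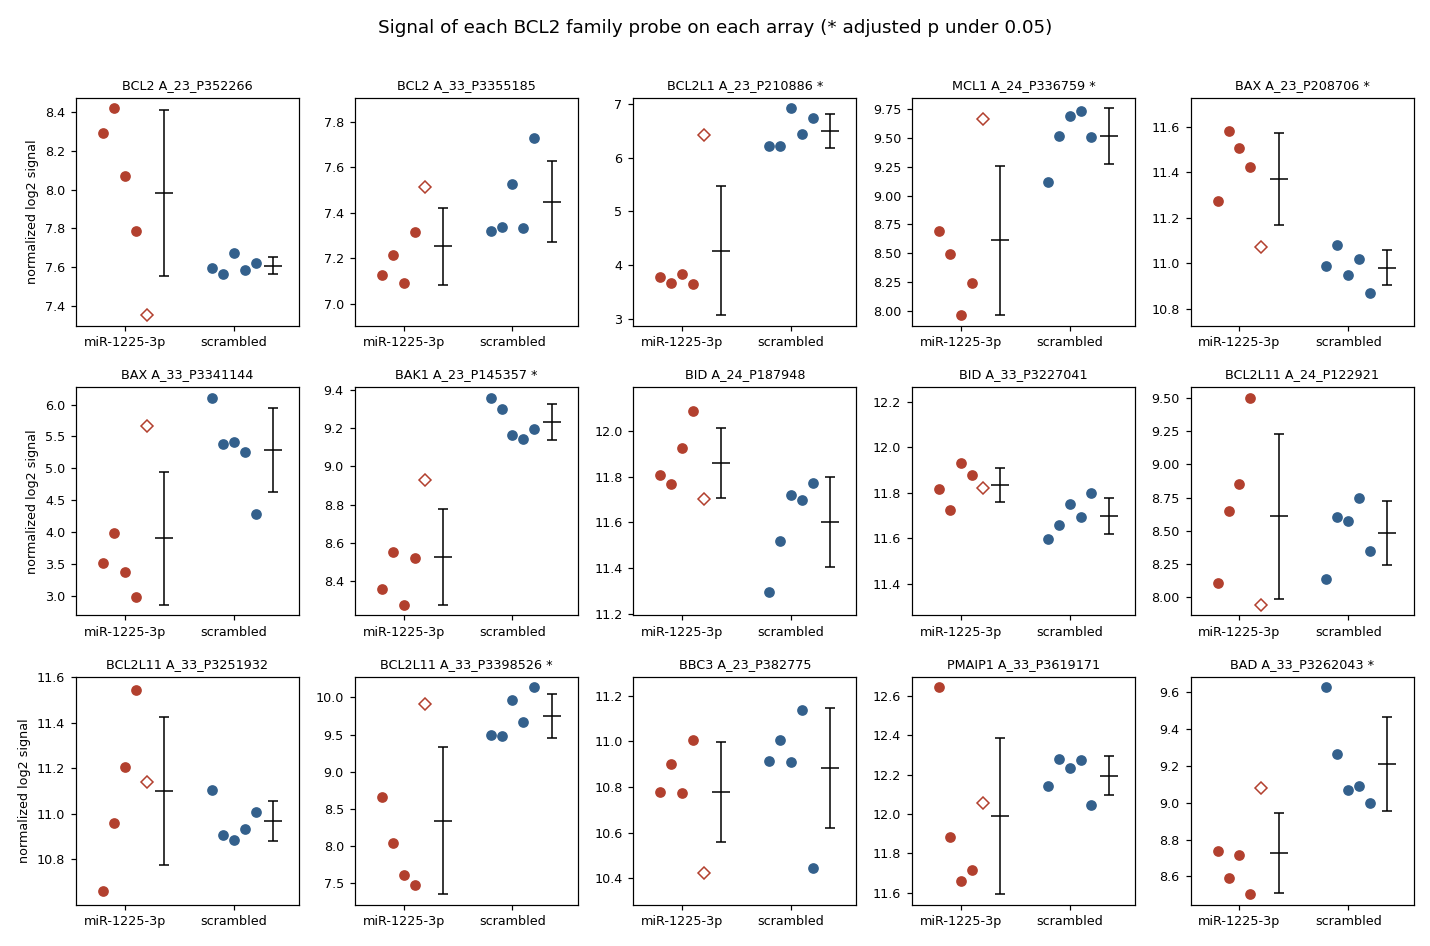
Normalized log2 signal (vertical axes, each panel on its own scale) of the 15 member probes on the 5 miR-1225-3p arrays (red) and the 5 scrambled arrays (blue). The open diamond is miR-1225-3p replicate 5, bars are mean and SD over 5 arrays, and a star marks an adjusted p under 0.05 by limma. The diamond lies with the scrambled arrays for BCL2L1 (6.42), MCL1 (9.66) and BCL2L11 A_33_P3398526 (9.91).

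The survival genes BCL2L1 and MCL1 fell after miR-1225-3p transfection, and BCL2 did not pass the test. BCL2L1 encodes BCL-XL. Its normalized log2 signal was 3.77, 3.66, 3.83, 3.64 and 6.42 in miR-1225-3p replicates 1 to 5, and 6.21, 6.21, 6.92, 6.44 and 6.73 in scrambled replicates 1 to 5. Replicates 1 to 4 lay close together and below every scrambled array, and replicate 5 lay inside the scrambled range. Its probe cleared the background threshold on all 5 scrambled arrays but, among those of miR-1225-3p, on replicate 5 alone, so the sizes fitted for it rest in part on signal near background. In the fit it fell by 2.24 on the log2 scale (SE 0.50, adjusted p = 0.0160 by limma, n = 5 per group; exact permutation p = 0.0238, where 5 against 5 arrays allow no less than 0.00794). Without replicate 5 it fell by 2.77 (adjusted p = 1.2e-05 by limma). The probe passed the filter only through the scrambled group, where it was brighter, so its p-values and calls are given as description.

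The probe is printed in 10 spots per array, so the spots above background can be counted on each array. On the scrambled arrays 9 or 10 of the 10 spots were well above background, and on miR-1225-3p replicate 5 all 10 were. On miR-1225-3p replicates 1 to 4 the number was 2, 0, 1 and 0. The processed signal before normalization was 16.9, 10.4, 7.39 and 9.72 on these 4 arrays, 125 on replicate 5, and between 46.6 and 214 on the scrambled arrays. Since 4 arrays of the group were not well above background, the size of the difference is not known. With these 4 values raised to at least the dimmest signal called well above background on their array, the difference was 6.52-fold without replicate 5. That floor is not the detection limit of this probe, so the value is not a lower bound. Background correction by normexp with an offset of 50, which compresses low values, gave a log2 fold change of -0.68 (adjusted p = 0.0259 by limma), less than that of MCL1 in the same setting (-0.78). On slide 1 alone the log2 fold change was -2.90 (adjusted p = 0.00949 by limma) and on slide 2 alone, which holds replicate 5, -1.70 (adjusted p = 0.467 by limma).

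MCL1, a short-lived guardian that also binds PMAIP1 and BCL2L11, was well above background on all arrays. Its log2 signal was 8.69, 8.49, 7.96, 8.25 and 9.66 on the miR-1225-3p arrays and 9.12, 9.52, 9.69, 9.73 and 9.51 on the scrambled arrays. Replicates 1 to 4 were below every scrambled array and replicate 5 was above 3 of the 5 scrambled arrays. MCL1 fell by 0.90 (SE 0.290, adjusted p = 0.0377 by limma; exact permutation p = 0.0317, n = 5 per group). Without replicate 5 the log2 fold change was -1.17 (adjusted p = 0.000738 by limma). The call was lost in 9 of the 10 fits that left out one array, all but the one without miR-1225-3p replicate 5, with adjusted p up to 0.0859, while the log2 fold change stayed between -1.17 and -0.74. On slide 1 alone it was -0.85 and on slide 2 alone -1.0.

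BCL2, the founding guardian, had a probe in each of 2 RefSeq transcripts, and they did not move together. The probe printed in 10 spots read 8.30, 8.42, 8.07, 7.79 and 7.35 on the miR-1225-3p arrays and 7.60, 7.56, 7.67, 7.59 and 7.62 on the scrambled arrays. Replicates 1 to 4 were above all scrambled arrays, which were tightly grouped, and replicate 5 was below them all. The log2 fold change was 0.38 (SE 0.197, adjusted p = 0.147 by limma, exact permutation p = 0.127), and 0.54 without replicate 5 (adjusted p = 0.00957 by limma). The probe of the other transcript read 7.13, 7.21, 7.09, 7.31 and 7.52 against 7.32, 7.34, 7.53, 7.33 and 7.73, so that replicates 1 to 4 were below every scrambled array by a small margin. Its log2 fold change was -0.20 (adjusted p = 0.272 by limma, exact permutation p = 0.0873) and -0.26 without replicate 5 (adjusted p = 0.0981 by limma).

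Of the effectors, BAK1 fell and BAX rose at its bright probe. BAK1, which sits in the outer mitochondrial membrane and forms pores once released, was the only member probe whose groups did not overlap, and over all probes with 10 values 12.6% were separated in this way. Its log2 signal was 8.36, 8.55, 8.28, 8.52 and 8.93 on the miR-1225-3p arrays and 9.36, 9.30, 9.17, 9.14 and 9.20 on the scrambled arrays. Replicate 5 was the highest of its group and still below the lowest scrambled array. BAK1 fell by 0.71 (SE 0.145, adjusted p = 0.0146 by limma; exact permutation p = 0.00794, the smallest possible with n = 5 per group). Without replicate 5 the log2 fold change was -0.81 (adjusted p = 0.000351 by limma). It was called in all 10 fits that left out one array. So was BCL2L1, near background on miR-1225-3p replicates 1 to 4, and no other member probe. The log2 fold change of BAK1 was -0.79 on slide 1 alone (adjusted p = 0.0331 by limma) and -0.65 on slide 2 alone, where 0 of all probes passed. BAK1 is on a list of platelet and megakaryocyte genes that the study drew from the genes called on these arrays, so that list is not independent evidence of its direction.

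BAX, the effector that moves from the cytosol to the mitochondrion, had 2 probes listed under different transcripts, with opposite signs. The bright probe, printed in 10 spots, read 11.27, 11.58, 11.50, 11.42 and 11.07 on the miR-1225-3p arrays and 10.99, 11.08, 10.95, 11.02 and 10.87 on the scrambled arrays. Replicates 1 to 4 were above every scrambled array and replicate 5 was just under the highest of them. This probe rose by 0.39 (SE 0.131, adjusted p = 0.0432 by limma; exact permutation p = 0.0159, n = 5 per group), and by 0.46 without replicate 5 (adjusted p = 0.00546 by limma). The call was lost in 9 of 10 fits without one array, all but the one without miR-1225-3p replicate 5, and its log2 fold change was 0.87 after scaling to the 75th percentile, 0.49 on slide 1 alone and 0.28 on slide 2 alone.

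The dim BAX probe read 3.52, 3.99, 3.37, 2.99 and 5.66 on the miR-1225-3p arrays, where it was well above background on replicate 5 only. On the scrambled arrays it read 6.11, 5.38, 5.41, 5.25 and 4.28 and was well above background on 4 of 5. Its log2 fold change was -1.38 (SE 0.495, adjusted p = 0.0523 by limma), and without replicate 5 it was -1.82 (adjusted p = 0.00183 by limma). With 4 miR-1225-3p arrays not well above background in both fits, these values do not give the size of a difference.

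**Figure D2:**
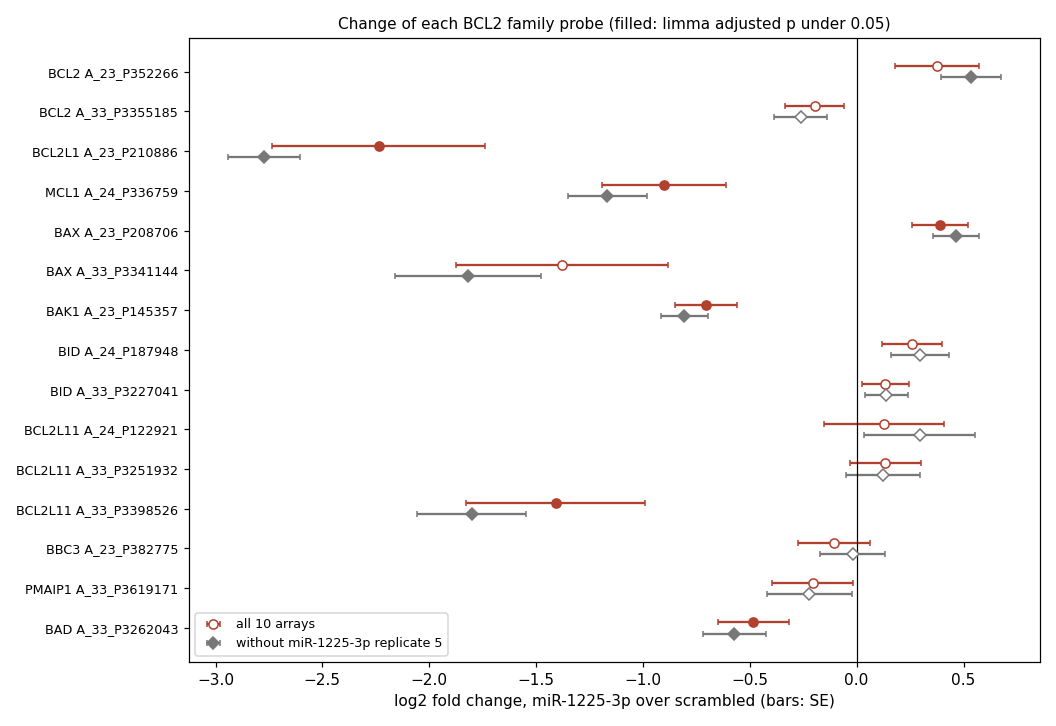
Log2 fold change of miR-1225-3p over scrambled for the 15 member probes, with all 10 arrays (circles) and without miR-1225-3p replicate 5 (diamonds), bars giving the SE and filled symbols an adjusted p under 0.05 by limma. BCL2L1, near background on miR-1225-3p replicates 1 to 4, is at -2.24 and -2.77, and the pairs of probes for BCL2 and BAX lie on opposite sides of 0.

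Among the BH3-only activators, which can bind BAX and BAK1 directly, most probes did not pass the test. BID, which caspase-8 cuts to carry a death receptor signal to the mitochondrion, had 2 bright probes on the same transcript. The first read 11.81, 11.77, 11.93, 12.09 and 11.70 against 11.29, 11.52, 11.72, 11.70 and 11.77, with a log2 fold change of 0.26 (adjusted p = 0.163 by limma), and the second ran from 11.73 to 11.93 against 11.60 to 11.80, with 0.13 (adjusted p = 0.336 by limma). Both groups overlapped at both probes. The exact permutation p was 0.0476 for the first and 0.0397 for the second (n = 5 per group), not adjusted for the number of probes. Without replicate 5 the log2 fold changes were 0.30 and 0.14, and neither passed (adjusted p = 0.0888 and 0.267 by limma). After scaling to the 75th percentile both BID probes passed, at 0.76 and 0.64.

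BCL2L11, which encodes BIM, is the BH3-only protein that removes blood cells deprived of growth factors, and its 3 probes differed. The probe with a single spot read 8.66, 8.05, 7.61, 7.48 and 9.91 on the miR-1225-3p arrays and 9.49, 9.48, 9.97, 9.67 and 10.14 on the scrambled arrays. Replicates 1 to 4 were again below every scrambled array, and replicate 5 was above 3 of the 5. That probe fell by 1.41 (SE 0.419, adjusted p = 0.0302 by limma; exact permutation p = 0.0317, n = 5 per group). Without replicate 5 its log2 fold change was -1.80 (adjusted p = 0.00044 by limma). The call held in 2 of the 10 fits without one array, those without miR-1225-3p replicate 1 or 5. On slide 1 alone the log2 fold change was -1.52 and on slide 2 alone -1.24.

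A further BCL2L11 probe listed under the same transcript read 10.66, 10.96, 11.21, 11.54 and 11.14 against 11.11, 10.91, 10.89, 10.93 and 11.01. The third, of another transcript, read 8.11, 8.65, 8.85, 9.50 and 7.94 against 8.13, 8.61, 8.58, 8.74 and 8.34. For both the log2 fold change was 0.13 (adjusted p = 0.535 and 0.727 by limma, exact permutation p = 0.429 and 0.690), with the spread wider on the miR-1225-3p arrays. Without replicate 5 it was 0.12 and 0.29 (adjusted p = 0.562 and 0.354 by limma). The fall of BCL2L11 thus rests on 1 spot per array, and the gene's other probes do not share it.

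BBC3 encodes PUMA and PMAIP1 encodes NOXA, both of them transcribed under p53, and neither passed the test. BBC3 read 10.78, 10.90, 10.77, 11.00 and 10.42 against 10.91, 11.01, 10.91, 11.14 and 10.44, with replicate 5 of both groups the lowest value, and its log2 fold change was -0.11 (adjusted p = 0.625 by limma, exact permutation p = 0.444). PMAIP1, whose product binds MCL-1 and hastens its breakdown, read 12.65, 11.88, 11.66, 11.71 and 12.05 against 12.14, 12.28, 12.23, 12.27 and 12.05. Replicates 2, 3 and 4 of miR-1225-3p were below the scrambled range and replicate 1 was above it. The log2 fold change of PMAIP1 was -0.20 (SE 0.190, adjusted p = 0.399 by limma, exact permutation p = 0.294). Without replicate 5 it was -0.02 for BBC3 (adjusted p = 0.928 by limma) and -0.22 for PMAIP1 (adjusted p = 0.369 by limma). Scaling to the 75th percentile turned the sign of both genes, to 0.35 for BBC3 and 0.32 for PMAIP1.

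BAD, a sensitizer that binds BCL-2 and BCL-XL and is kept inactive in the cytosol by 14-3-3 proteins, read 8.74, 8.59, 8.72, 8.50 and 9.08 on the miR-1225-3p arrays. On the scrambled arrays it read 9.63, 9.27, 9.07, 9.09 and 9.0. Replicates 1 to 4 were below every scrambled array, and replicate 5 was within the scrambled range. BAD fell by 0.48 (SE 0.165, adjusted p = 0.0448 by limma; exact permutation p = 0.0238, n = 5 per group). Without replicate 5 the log2 fold change was -0.57 (adjusted p = 0.00953 by limma). The call held in 2 of the 10 fits without one array, those without miR-1225-3p replicate 5 or scrambled replicate 5, and was lost after scaling to the 75th percentile, at -0.19. On slide 1 alone the log2 fold change was -0.56 and on slide 2 alone -0.41.

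Members of opposite role were also set against each other within each array, as differences of log2 signal whose absolute size has no meaning between probes. The difference BCL2L1 minus BAK1 was -4.58, -4.89, -4.45, -4.88 and -2.51 on the miR-1225-3p arrays and -3.15, -3.09, -2.25, -2.70 and -2.47 on the scrambled arrays, so that replicates 1 to 4 were below every scrambled array and replicate 5 was among them. The mean of this difference shifted by -1.53 from the scrambled to the miR-1225-3p group, and by -1.97 without replicate 5. For BCL2L1 minus BAD the shift was -1.75, and -2.20 without replicate 5. Since BCL2L1 was not well above background on miR-1225-3p replicates 1 to 4, neither shift that involves it is an exact size. For MCL1 minus PMAIP1 it was -0.70, and -0.95 without replicate 5. BCL2 minus BAX, at their brightest probes, shifted by -0.01, and by 0.07 without replicate 5, since both probes were higher on miR-1225-3p replicates 1 to 4. These shifts depended on the normalization. With no normalization they were -0.33 for BCL2 minus BAX and -0.92 for MCL1 minus PMAIP1. For BCL2L1 minus BAK1 and minus BAD they were -1.90 and -2.13. The groups overlapped for all 4 differences when all 10 arrays were used.

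**Figure D3:**
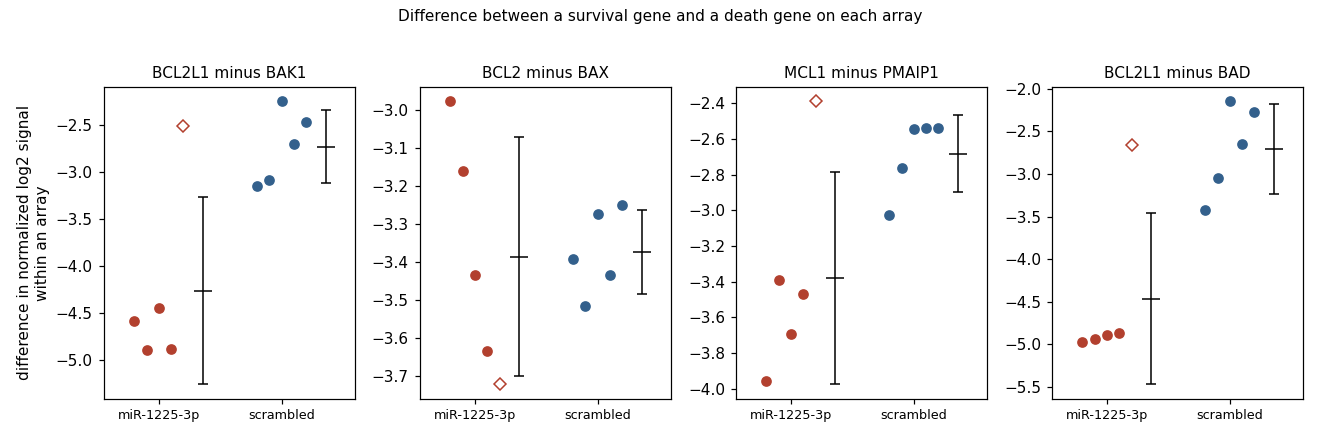
Difference of normalized log2 signal within each array (vertical axes, each panel on its own scale) between a survival and a death gene of the family, for miR-1225-3p (red) and scrambled (blue) arrays. The open diamond is miR-1225-3p replicate 5 and bars are mean and SD over 5 arrays. The first and last panel hold BCL2L1, near background on miR-1225-3p replicates 1 to 4, with shifts of -1.53 against BAK1 and -1.75 against BAD.

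The rest of the pathway was described through 8 lists of 62 other genes, of which 85 of 90 probes passed the filter. Of these 85, 31 passed the test (11 higher and 20 lower), which is 36.5% beside the 35.0% of all probes, and 61 passed without miR-1225-3p replicate 5, where 56.0% of all probes did. The count fell to 15 when replicate 2 or 3 of that group was left out, and to 20 for scrambled replicate 2. In those fits 11.1%, 12.6% and 19.5% of all probes passed. On slide 1 alone 22 passed, beside 25.9% of all probes. On slide 2 alone 0 of 78 passed (10 at an unadjusted p under 0.05), beside 0 of all probes. The median log2 fold change was -0.04. After scaling to the 75th percentile the split was 27 higher and 17 lower, and after quantile normalization 17 and 19.

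Other BCL2 relatives moved in both directions. Of 8 probes for further guardians and effectors, 3 rose and 1 fell (median 0.30). That is 50% called, beside 35.0% of all probes called, 16.3% higher and 18.7% lower. With no normalization 0 of these 8 passed, beside 5.93% of all probes. BCL2A1, a guardian of blood cells, rose by 1.31 (adjusted p = 0.0159 by limma), from 7.01 to 7.46 on the scrambled arrays to 7.42 to 9.13 on the miR-1225-3p arrays, with replicate 5 the lowest of its group, and a second BCL2A1 probe rose by 0.42 (adjusted p = 0.0246 by limma). BCL2L13 had one probe that fell by 1.18 (adjusted p = 0.0146 by limma) and one that rose by 0.69 (adjusted p = 0.0144 by limma), neither with overlapping groups. Without replicate 5 the second BCL2A1 probe was at 0.45, the first rose more (adjusted p = 4.50e-05 by limma), and BCL2L13 was at -1.39 and 0.69. Of 7 probes for other BH3-containing genes, 1 rose (HRK) and 2 fell (BIK and BMF), with a median of 0.22, and none of these 3 was well above background on all arrays. For this list 42.9% were called, beside 35.0% of all probes.

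Genes that control the stability or binding of the members formed the next list. In the list of MCL-1 and NOXA turnover and BAD binding, 7 of 13 probes fell and 0 rose (median -0.82, against -0.09 over all probes), which is 53.8% called, beside 35.0% of all probes called and 18.7% lower. The 7 were 2 probes of HUWE1, 1 each of PIM1 and GSK3B, and 1 each of the 14-3-3 genes YWHAE, YWHAQ and YWHAZ, whose products hold phosphorylated BAD. YWHAE cleared the background threshold on 1 array of miR-1225-3p and passed the filter through the scrambled group. YWHAQ and YWHAZ each had a further probe that did not pass, at -0.48 and 0.59. HUWE1, the ubiquitin ligase MULE that marks MCL-1 for breakdown, fell by 1.32 (adjusted p = 0.0144 by limma), from 7.94 to 8.33 down to 6.40 to 7.69, without overlap. PIM1, a kinase that phosphorylates BAD, fell by 1.56 (adjusted p = 0.0268 by limma), from 14.88 to 15.32 down to 12.42 to 14.64, without overlap. The genes of this list that fell act on the members in opposite senses, HUWE1 removing a guardian and PIM1 restraining BAD. The list had 6 lower and 1 higher after scaling to the 75th percentile (median -0.42), 9 lower and 2 higher without miR-1225-3p replicate 5, and 1 lower with no normalization. Without replicate 5 HUWE1 was at -1.52 and PIM1 at -1.84.

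Downstream of the pore, 2 of 11 probes for the apoptosome and caspases rose and 0 fell (median 0.44), beside 16.3% of all probes higher, with 6 higher and 1 lower after scaling to the 75th percentile and 6 higher and 2 lower without miR-1225-3p replicate 5. CYCS, the gene of cytochrome c, rose by 1.10 (adjusted p = 0.0397 by limma), with replicate 5 at 5.73 below the scrambled range of 5.83 to 6.18. This was its dimmest probe, and the log2 fold change of the 2 bright CYCS probes was 0.44 (adjusted p = 0.0501 and 0.0747 by limma). CASP9, the caspase that the apoptosome activates, rose by 0.59 (adjusted p = 0.0158 by limma), without overlap. Without replicate 5 CASP9 was at 0.67 and CYCS, at its dim probe, at 1.43. Among the inhibitors of apoptosis and their antagonists, 1 of 10 probes rose and 2 fell, which is 30% called, beside 35.0% of all probes. XIAP, which blocks caspases, rose by 0.48 (adjusted p = 0.0271 by limma), while BIRC2, another inhibitor, fell by 0.52 (adjusted p = 0.0343 by limma) and DIABLO, which antagonizes both, fell by 0.98 (adjusted p = 0.0328 by limma). Without replicate 5 XIAP was at 0.55, BIRC2 at -0.61 and DIABLO at -1.20. Of 6 probes for the mitochondrial pore, VDAC2, a channel that holds BAK in the membrane, had the 1 that rose, by 0.54 (adjusted p = 0.0204 by limma; 0.61 without replicate 5), while 0 fell and the median of the list was -0.30. That is 16.7% of the list called, beside 35.0% of all probes. Without replicate 5 this list had 2 higher and 3 lower, and in the authors' values 1 higher and 2 lower. VDAC1 was at -0.95 and -1.06 and VDAC3 at -0.56 (adjusted p = 0.0609, 0.0870 and 0.0503 by limma).

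In the death receptor branch, which reaches the family through BID, 4 of 15 probes fell and 0 rose (median -0.21), beside 18.7% of all probes lower. After scaling to the 75th percentile 3 were lower and 3 higher (median 0.25), and without miR-1225-3p replicate 5 4 were lower and 4 higher. With only probes well above background on all 10 arrays tested, 11 were left, of which 1 was lower and 1 higher (median 0.16). CASP10, an initiator caspase, had a probe that fell by 0.82 (adjusted p = 0.0338 by limma; -0.96 without replicate 5) and another of the same transcript, also well above background on all arrays, at 0.30 (adjusted p = 0.208 by limma), which passed without replicate 5 at 0.43 (adjusted p = 0.0360 by limma). A CASP10 probe of another transcript, also well above background on all arrays, was at -0.34 and did not pass (adjusted p = 0.146 by limma). Of the other 3 falls, CASP8 and the TRAIL receptor TNFRSF10A, named here after their values were seen, passed the filter through the scrambled group, clearing the background threshold on 1 and 2 arrays of miR-1225-3p against 5 scrambled ones, and no size is given for them. Of 15 probes for upstream regulators, 3 rose and 4 fell (median -0.32), which is 46.7% called, beside 35.0% of all probes. E2F1, a factor of cell division that can also raise BH3-only genes, rose by 0.86 (adjusted p = 0.0144 by limma), and MDM4, which restrains p53, had a probe that rose by 0.63 (adjusted p = 0.0220 by limma) and another at -0.33 (adjusted p = 0.162 by limma). STAT5A, which drives BCL2L1 in blood cells, fell by 0.99 (adjusted p = 0.0218 by limma), from 8.27 to 9.07 down to 7.23 to 8.50, with overlap. STAT5B, its close relative and named after its values were seen, rose by 0.54 (adjusted p = 0.0292 by limma). Without replicate 5 E2F1 was at 0.97, the rising MDM4 probe at 0.76, STAT5A at -1.17 and STAT5B at 0.67.

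**Figure D4:**
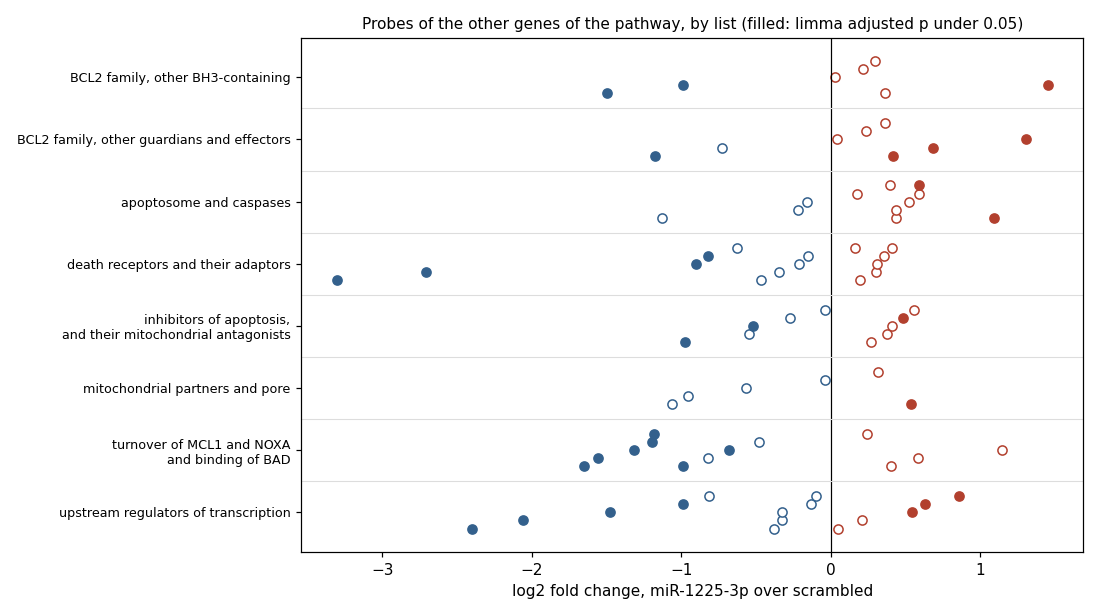
Log2 fold change of miR-1225-3p over scrambled for the 85 kept probes of the other genes of the pathway, one row per list (vertical position within a row only separates the points). Red is higher, blue lower and filled symbols have an adjusted p under 0.05 by limma. The row for MCL1 and NOXA turnover and BAD binding holds 7 filled points, all below 0, and the row for the apoptosome and caspases 2, both above 0.

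For the brightest probe of each role, the probes of other genes with the most similar course over the 10 arrays were looked up, as a description. The probe closest to MCL1 was PPP3R1 (Pearson r = 0.987), then ANP32A (0.986) and CEPT1 (0.985). The closest to BAX was DNMT3B (0.987), then ATRAID (0.978) and DNAJC9 (0.97), and the closest to PMAIP1 was TAF12 (0.97), then SIRT6 (0.958) and PIGH (0.957). These points share the arrays, the 2 groups and the position of miR-1225-3p replicate 5.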

How the data were processed

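Total RNA of MEG-01 cells transfected with miR-1225-3p or scrambled precursor was measured on 10 arrays, 5 per group, grouped by the sample labels. The files that the authors deposited are scanner output (Feature Extraction, version 10.7.3.1 in the submitters' processing notes, another in the methods), whose processed signal is a background-subtracted intensity, with flags per spot. The authors also deposited a table of normalized log2 values for 29271 probes, an alternative here. After centring each probe, they correlated per array with the values used here at 0.981 to 0.998. Per the methods, the log of a geometric mean of controls was subtracted, and whether these are samples or spots is not said. Medians per array were 4.77 to 5.15.

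Cyclic loess, the method of the study, was applied to the log2 of the processed signal (limma 3.58.1 in R 4.3.3, 3 iterations), which assumes that most probes keep their level. Before probes were averaged over their spots, 4259 control spots and all outlier spots were removed. A probe was well above background on an array when no fewer of its spots were flagged so than not. RefSeq accessions gave a symbol for 24910 of 42405 probes, all 15 member probes among them. Groups were compared with limma, two-sided, with Benjamini-Hochberg adjustment over 20648 kept probes at 0.05, and single members also with an exact permutation test. The fit was first tested on simulated data.

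The members, the pathway lists and the alternatives were chosen with earlier results of these data known. Named were all members, and per list up to 2 rises and 2 falls with the largest change among called probes well above background on all arrays. The alternatives were other scalings, background correction by normexp on the median signal (the planned mean signal was not used here), other filters, the methods' t-test, robust and weighted fits, replicate and slide blocks, and each array left out in turn. The labels do not say that replicate numbers pair the arrays. Same-numbered arrays correlated between -0.401 and 0.059 in their deviations from the group means. Since miR-1225-3p replicate 5 stood apart from its group, these correlations cannot settle whether the arrays are paired.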

Additional observations from a re-analysis of the deposited data

Results flagged for a closer look

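Of the 30 groups of 5 values (15 probes in 2 groups), 1 held a value far from the other 4, where chance alone gives about 1.5. It was BCL2L1 on miR-1225-3p replicate 5, at 6.42 on the normalized log2 scale, against 3.64 to 3.83 on replicates 1 to 4 and 6.21 to 6.92 on the scrambled arrays. The same array scored with the scrambled arrays on the first principal component over all kept probes. No scrambled array scored with miR-1225-3p replicates 1 to 4. Whether this sample took up the precursor, and whether its label is right, was not tested, and both bear on every value from all 10 arrays.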

How the results depend on the processing

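Of 15 member probes, 6 passed the test, and 25 other settings were run. The count was 1 with no normalization, 2 with no filter on dim probes (over 42405 probes), 0 on slide 2 alone (limma; 0 at an unadjusted p under 0.05) and between 2 and 8 when one array was left out. Leaving out miR-1225-3p replicate 1 gave 3, scrambled replicate 5 gave 4, miR-1225-3p replicate 5 gave 8, and each of the others gave 2. The methods' t-test passed 9 unadjusted and 4 after adjustment. Of the 85 other probes of the pathway, 31 passed. That count was 7 with no normalization, 70 with array weights, 0 on slide 2 alone (10 unadjusted) and between 15 and 61 when one array was left out, with the lowest count without miR-1225-3p replicate 2 or 3 and the highest without miR-1225-3p replicate 5. Of all probes 35% were called in the main fit, 5.93% with no normalization, 9.47% with no filter and 67.8% with array weights. On slide 2 alone 0 were called, and with one array left out 11.1% to 56%. The median of all probes was -0.09, 0.11 after scaling to the 75th percentile and -0.31 with no normalization.

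With the replicate number as a fixed block, 0 member probes passed (limma; 6 unadjusted), 0 pathway probes (37 unadjusted) and 0 of all probes (8994 unadjusted). The labels state no pairing, and whether the numbers pair the arrays was not settled. BCL2L1 and BAK1 both had an adjusted p of 0.0503 by limma there.

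BCL2L1, which passed the filter only through the scrambled group, kept its call in 22 of 24 settings and BAK1 in 22 of 25. BCL2L11 at its single-spot probe kept it in 12 of 25, BAX in 9, BAD in 9 and MCL1 in 8. Signs turned only in probes that did not pass. BBC3 was 0.35 after scaling to the 75th percentile and 0.085 on slide 1 alone, and PMAIP1 0.32 and 0.12. One BCL2L11 probe (A_24_P122921) was -0.047 with no normalization and ranged from -0.094 to 0.29 with one array left out, and another (A_33_P3251932) was -0.19 on slide 1 alone. The causes were not tested. The 5 arrays a group limit every value, and BCL2L1 and the dim BAX probe are also limited by signal near background.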
